A study of Mus musculus with 2 samples.

Results

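The 7 genes described here belong to the interleukin-6 (IL-6) receptor, STAT3 and SOCS system and were followed in T cells of the mouse spleen: the receptor chains Il6ra and Il6st, the transcription factor gene Stat3, and the feedback inhibitor genes Socs1, Socs2, Socs3 and Cish. They were taken by gene symbol, each symbol matched 1 row, and they are 7 of the 30905 genes in the count tables. IL-6 binds its receptor chain IL-6Rα, encoded by Il6ra, and the complex then engages gp130, encoded by Il6st and shared by the whole IL-6 cytokine family. Janus kinases on gp130 phosphorylate STAT3, which enters the nucleus and switches on target genes, Socs3 among them. SOCS3 in turn binds gp130 and blocks its signal. SOCS1 restrains interferon and common gamma chain cytokine signals, while CIS, the product of Cish, and SOCS2 are best known as targets of STAT5, the factor used by interleukin-2 and interleukin-7. In T cells the system bears on T helper 17 and regulatory T cell (Treg) differentiation.

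The study sorted CD3+ T cells from spleens of C57BL/6 mice and made 1 droplet library (10x Genomics 3′ chemistry) for each of 2 groups, with 3 mice per group in the design. The first library is labelled Prmt5-CKO, marked CRE, from CD4-Cre+ Prmt5 fl/fl mice that lack the arginine methyltransferase gene Prmt5 in T cells, and the second is labelled control, marked WT. The genotype field of the labels gives CD4-Cre+ PRMT5fl/fl for both libraries, so the groups rest on the titles, and the control allele is not given. CD4-Cre becomes active in thymocytes that carry both CD4 and CD8, so both lineages are targeted, and gamma-delta T cells mostly are not. With 1 library per group and no map from cells to mice, no test between groups was possible. All intervals below are 95% exact intervals that cover counting error only.

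The libraries held 7896 (CKO) and 7407 (control) barcodes with 52387620 and 48273424 unique molecular identifiers (UMIs, single captured transcripts), and 7567 and 6620 T cells passed, with a median of 6049 and 6289 UMIs. Of all barcodes, 97.0% in CKO and 90.6% in control passed the cell filter. The T cells had a median of 4.33% and 5.09% mitochondrial UMIs, so the libraries differed in quality. Levels are given as CPM, the UMIs of a gene per 1000000 of all UMIs summed over a cell class, and ratios as CKO over control. Prmt5 itself stood at 4.87 CPM in CKO T cells (250 UMIs) and 15.03 in control T cells (702 UMIs), a ratio of 0.324 (0.279 to 0.375). The labels do not say which part of Prmt5 is deleted, so a 3′ tag need not report the deletion. Of 4 neutrophil markers, Csf3r and Retnlg were at 0 in T cells of both libraries, and the list summed to 0.779 CPM in CKO and 0.150 in control. The summed level of 8 B cell markers was 285 CPM in CKO and 266 in control T cells. Erythroid markers summed to 9.70 and 1.46 and gamma-delta T cell markers to 498 and 215, and their part in the results was not tested. Both libraries held cells of both sexes: 2197 and 1655 T cells had a Y-linked UMI and no Xist UMI, and 3277 and 3191 the reverse. The libraries shared 11 barcodes.

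T cell classes were rebuilt from clusters, so their names are approximate. The NKT-like class takes in cluster 12.6 (6 CKO and 32 control cells). Its leading genes include Zbtb16 but also the gamma chain genes Tcrg-C1, Tcrg-C2 and Tcrg-C4. Of the 7 genes, 5 (Il6ra, Socs1, Socs2, Socs3 and Cish) were among the 2000 variable genes used for clustering, and Il6st and Stat3 were not. With the 7 genes and their pathway partners left out of the clustering, the CKO over control ratios in naive-like CD4 cells were 1.71 for Socs3 and 1.79 for Cish, and in naive-like CD8 cells 1.65 and 1.98. A difference was called when it was past 1.5-fold, among genes with at least 5 CPM and 50 UMIs in all. Across all T cells 1.91% of 8285 genes were past 1.5-fold higher in CKO and 0.579% lower. Of the 7 genes, 6 met the minimum there, and 1 of them, Cish, was past 1.5-fold, on the higher side.

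The genes lie on 6 chromosomes of the mm10 build (GENCODE vM21): Il6ra at chr3:89864059-89913196, Il6st at chr13:112464070-112510086, Stat3 at chr11:100885098-100939540, Socs1 at chr16:10782240-10785536, Socs2 at chr10:95385362-95417180, Socs3 at chr11:117966079-117970047 and Cish at chr9:107296026-107302784. Il6st and Cish are on the plus strand and the others on the minus strand. The last 72 bases of Stat3 overlap the end of Stat5a on the opposite strand, and the antisense gene Gm17041 lies inside Cish, 946 bases from its 3′ end. The sources used here do not state how strand was used in counting.

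Promoter windows of 300 bases (250 before to 50 after the annotated start) were available from RefSeq on GRCm38.p6 for 6 of the 7 genes, all but Socs2. The windows of Cish and Socs3 lie wholly inside the GENCODE gene spans given above. The RefSeq start used for them is thus downstream of the GENCODE gene start, and their motif matches fall within those spans. Cish and Socs3 are shown because they carry the clearest differences between the libraries. Socs1 is shown because its level was among the highest in interferon-responding-like cells, as it was in Treg-like cells. Capitals mark 2 motifs searched on both strands: TTCNNNGAA, the palindrome recognised by STAT factors, and GAAA followed by any 2 bases and GAAA again, the core of the interferon-stimulated response element.
Cish, chr9:107296409-107296708, plus strand: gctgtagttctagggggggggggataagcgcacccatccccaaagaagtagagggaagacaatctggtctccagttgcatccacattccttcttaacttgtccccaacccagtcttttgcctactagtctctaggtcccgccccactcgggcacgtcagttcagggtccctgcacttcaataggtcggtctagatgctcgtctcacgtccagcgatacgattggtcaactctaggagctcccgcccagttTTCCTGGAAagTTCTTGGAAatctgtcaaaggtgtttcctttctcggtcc
Socs3, chr11:117969317-117969616, minus strand: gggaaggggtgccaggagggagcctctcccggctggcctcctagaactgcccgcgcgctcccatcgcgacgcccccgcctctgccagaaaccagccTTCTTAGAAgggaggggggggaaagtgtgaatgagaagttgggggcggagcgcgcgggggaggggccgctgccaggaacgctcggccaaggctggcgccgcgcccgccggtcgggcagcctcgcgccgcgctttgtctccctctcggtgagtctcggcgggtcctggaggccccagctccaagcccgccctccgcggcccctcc
Socs1, chr16:10785487-10785786, minus strand: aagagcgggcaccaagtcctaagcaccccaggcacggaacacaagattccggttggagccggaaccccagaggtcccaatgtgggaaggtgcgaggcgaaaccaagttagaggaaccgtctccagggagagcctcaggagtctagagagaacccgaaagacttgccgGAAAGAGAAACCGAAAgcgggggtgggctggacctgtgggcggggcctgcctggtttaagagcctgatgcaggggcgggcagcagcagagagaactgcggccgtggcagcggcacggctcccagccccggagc
The Cish window held 2 copies of TTCNNNGAA, TTCCTGGAA from base 251 and TTCTTGGAA from base 262. The Socs3 window held 1 copy, TTCTTAGAA from base 97. The Socs1 window held 2 overlapping copies of the interferon-type motif, from bases 168 and 174, and no copy of TTCNNNGAA. The windows of Il6ra, Il6st and Stat3 held neither motif. Of 32817 mouse promoter windows of this length, 8.29% held TTCNNNGAA and 0.457% held 2 or more copies, while 3.43% held the interferon-type motif and 0.222% held 2 or more. These are matches of letters, not shown binding sites.

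**Figure D1:**
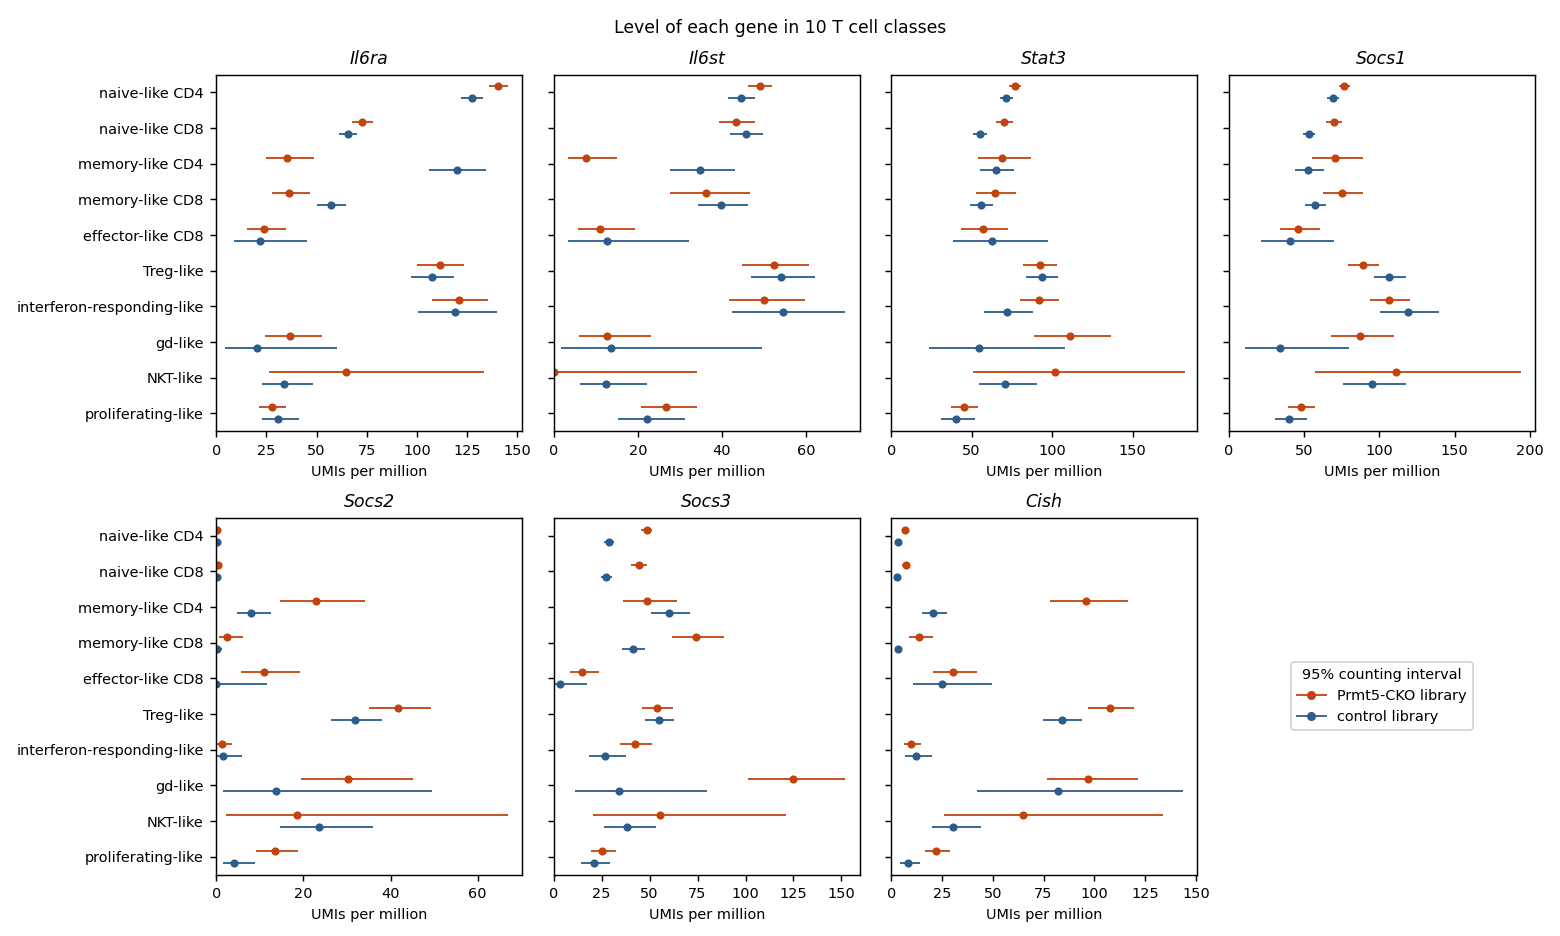
Level of each gene (horizontal axis, CPM, linear from 0) in 10 T cell classes in the CKO (orange) and control (blue) libraries; points are summed UMIs and bars 95% counting intervals. Il6ra is highest in naive-like CD4 cells of both libraries. Cish and Socs2 are highest in Treg-like cells of both, with bars that overlap those of the next class. The bars of the small gamma-delta (gd) and NKT-like classes are wide.

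Il6ra, the ligand-binding chain, was highest in naive-like CD4 cells of both libraries. In the CKO library these cells had 141 CPM (3308 UMIs, 4012 cells). Interferon-responding-like cells followed at 121 and Treg-like cells at 111, and naive-like CD8 cells stood at 72.8. Effector-like CD8 cells had the lowest CKO level, 23.8. The intervals of interferon-responding-like and Treg-like cells overlapped, and those of naive-like CD4 and naive-like CD8 cells did not. In the control library naive-like CD4 cells were again highest, at 127 CPM (2189 UMIs, 2895 cells), with memory-like CD4 cells at 119.8, interferon-responding-like cells at 119.0 and Treg-like cells at 107. The intervals of the first 3 overlapped. Naive-like CD8 cells followed at 65.6 and memory-like CD8 cells at 57.2.

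Between libraries Il6ra was within 1.5-fold in naive-like and Treg-like cells and lower in CKO memory-like cells. The ratio was 1.10 (1.05 to 1.17) in naive-like CD4 cells, 1.11 (1.002 to 1.23) in naive-like CD8 cells and 1.04 (0.898 to 1.20) in Treg-like cells, none of them past 1.5-fold. In memory-like CD4 cells Il6ra stood at 35.4 CPM in CKO (37 UMIs, 135 cells) and 119.8 in control (283 UMIs, 360 cells), a ratio of 0.296 (0.204 to 0.418). Of 6049 genes measured in memory-like CD4 cells, 8.45% were past 1.5-fold lower in CKO and 8.78% higher. Il6ra lay below all but 0.314% of them. In memory-like CD8 cells the levels were 36.3 and 57.2, a ratio of 0.634 (0.472 to 0.841). In memory-like or effector-like CD8 cells together (193 and 138 CKO cells, 445 and 42 control cells) the ratio was 0.572 (0.443 to 0.731), past 1.5-fold, where 2.98% of 7543 genes were past 1.5-fold lower and 9.89% higher and the median log2 ratio of all genes was 0.13. Effector-like CD8 cells alone had 23.8 and 22.0 CPM from 26 and 7 UMIs, a ratio of 1.08 (0.457 to 2.95), and they made up more of the CKO than of the control cells in this combined set. The proliferating-like ratio was 0.891 (0.604 to 1.32). After thinning every cell to 2000 UMIs, 5.93% of CKO and 18.9% of control memory-like CD4 cells had an Il6ra UMI (21.5% and 47.2% before thinning). The share in B-like cells, after the same thinning, was 8.33% and 7.69%, and the share of CKO memory-like CD4 cells did not stand above it. With 72 and 67 B-like cells in the libraries, these shares are too uncertain to set a background.

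Memory-like CD4 cells came from different clusters in the 2 libraries. Cluster 12.1, led by Maf and Tbc1d4, had 10 CKO and 151 control cells, and cluster 12.5, led by Gpm6b, Tox2 and Tbc1d4, had 12 and 124. Cluster 12.3, led by Il22 and S100a4, had 61 and 17, and cluster 12.2, led by Ifng, had 52 and 68. Il6ra was 148 CPM in control cells of cluster 12.1 and 124 in those of 12.5, against 34.4 in those of 12.3. Within clusters the ratios were 0.414 (0.133 to 0.989) in 12.1, 0.179 (0.0454 to 0.515) in 12.2, 1.06 (0.388 to 3.63) in 12.3 and 0.717 (0.302 to 1.47) in 12.5. The lower level in the CKO class thus went together with a shift toward cluster 12.3, and in cluster 12.2, present in both libraries, Il6ra was also lower, from 4 and 26 UMIs.

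A similar within-class caution holds for naive-like CD4 cells. Cluster 6, with Pdlim4, Ly6c1, Igfbp4 and Dapl1 among its leading genes, had 1454 CKO and 73 control cells. Il6ra stood at 157 and 180 CPM in cluster 6, 167 and 156 in cluster 8, 116 and 118 in cluster 5, and 76.9 and 83.5 in cluster 9, whose leading genes include Sox4. Without cluster 6 the naive-like CD4 ratio was 1.03. One further class stood out for Il6ra: the cluster led by Fcer1g, which kept no cell type name, had 18.8 CPM in CKO (34 UMIs) and 2.78 in control (3 UMIs), a ratio of 6.77 (2.13 to 34.4).

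Il6st, the signal-transducing chain gp130, had nearly equal levels in the libraries over all T cells. It stood at 43.8 CPM in CKO (2250 UMIs) and 43.9 in control T cells (2051 UMIs), a ratio of 0.998 (0.939 to 1.06). Treg-like, interferon-responding-like, naive-like CD4 and naive-like CD8 cells all lay between 43.4 and 54.6 in both libraries, with neighbouring intervals overlapping. Among naive-like CD4 clusters it was highest in cluster 9, at 87.8 and 82.5. Effector-like CD8 cells had 11 and 12.6 CPM and gamma-delta-like cells 12.6 and 13.7, from 12, 4, 10 and 2 UMIs. In memory-like CD4 cells Il6st was 7.66 in CKO (8 UMIs) and 34.7 in control (82 UMIs), a ratio of 0.221 (0.0922 to 0.456). The clusters differed in level as well as in cell number: control cells of clusters 12.1 and 12.5 had 39.6 and 45.7 CPM, those of 12.2 had 10.6, and those of 12.3 had none. Within clusters the ratios were 0.310 (0.00766 to 1.83) in 12.1, 0.291 (0.00590 to 2.94) in 12.2 and 0.731 (0.145 to 2.3) in 12.5, from 1, 1 and 3 CKO UMIs. At Leiden resolution 0.5 the class ratio was 0.504, without the highest doublet scores 0.420 and with the 7 genes and their partners left out of the clustering 0.442. The unnamed cluster led by Xcl1 and Tnfrsf9, an activation receptor gene, had 38.8 in CKO and 62.7 in control, a ratio of 0.619 (0.468 to 0.820). Il6st and Il6ra were thus both past 1.5-fold lower in memory-like CD4 cells, where the shift between clusters and the level within clusters cannot be fully told apart.

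Stat3, which carries the signal of IL-6, IL-10, IL-21 and IL-23 receptors, was present in every class. In control cells it ranged from 40.4 CPM in proliferating-like to 93.6 in Treg-like cells, and in CKO cells from 45 in proliferating-like to 111 in gamma-delta-like cells (88 UMIs). Over all T cells the levels were 75.2 and 65.3, a ratio of 1.15 (1.10 to 1.21), not past 1.5-fold. Naive-like CD8 cells had 70.3 CPM in CKO (691 UMIs) and 55.3 in control (657 UMIs), a ratio of 1.27 (1.14 to 1.42). Naive-like CD4 cells had 76.8 and 71.4, a ratio of 1.08 (1.001 to 1.16), and without cluster 6 the ratio was 0.984. Treg-like cells had 92.2 and 93.6, a ratio of 0.985 (0.842 to 1.15). Stat3 was past 1.5-fold only in the Fcer1g cluster and gamma-delta-like cells, of the classes compared. The Fcer1g cluster had 95.8 and 62.1, a ratio of 1.54 (1.16 to 2.08), and the gamma-delta-like ratio of 2.02 had an interval from 0.984 to 4.84 that included 1.

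Socs1, the inhibitor of interferon and gamma chain cytokine signals, was highest in control interferon-responding-like cells at 119.0 CPM and in Treg-like cells at 107. In the CKO library NKT-like cells had 111 from only 12 UMIs, followed by interferon-responding-like cells at 107 and Treg-like cells at 89.2, with overlapping intervals. The Socs1 ratio between libraries was above 1 in some classes and below 1 in others, and this difference between classes was not tested. In naive-like CD8 cells Socs1 was 69.8 in CKO and 53.3 in control, a ratio of 1.31 (1.17 to 1.46), and in memory-like CD8 cells 75.0 and 57.2, a ratio of 1.31 (1.05 to 1.63). In Treg-like cells it was 89.2 (295 UMIs, 471 cells) and 107 (397 UMIs, 530 cells), a ratio of 0.835 (0.716 to 0.974). Treg-like cells with a Y-linked UMI had 87.0 and 103, and those with an Xist UMI had 89.2 and 109, so the order held in both. A CKO level below the control level in both sexes held for 20.6% of 7794 genes in Treg-like cells. Of these 7794 genes, 18.0% had a lower log2 ratio than Socs1. None of these Socs1 values was past 1.5-fold. Gamma-delta-like cells had 87.0 (69 UMIs) and 34.3 (5 UMIs), a ratio of 2.54 (1.04 to 8.07).

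**Figure D2:**
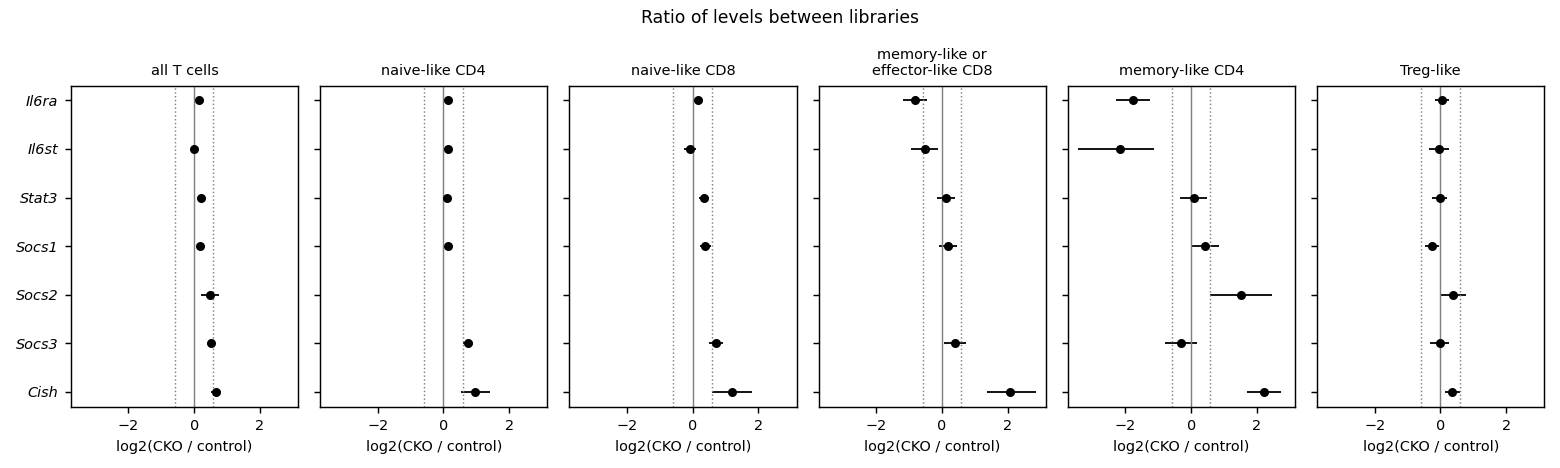
Log2 ratio of CKO over control (horizontal axis) for each gene in 6 cell sets; bars are 95% counting intervals, dotted lines mark 1.5-fold, and Socs2 is left out where a library had fewer than 4 UMIs. Socs3 and Cish lie past the upper line in naive-like CD4 and CD8 cells, Il6ra and Il6st past the lower line in memory-like CD4 cells, and no gene is past a line in Treg-like cells.

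Socs3, the direct brake on gp130, was higher in the CKO library in both naive-like classes. In naive-like CD4 cells it stood at 48.4 CPM in CKO (1139 UMIs) and 28.7 in control (493 UMIs), a ratio of 1.69 (1.52 to 1.88). Naive-like CD8 cells had 44.4 (436 UMIs) and 27.3 (325 UMIs), a ratio of 1.62 (1.40 to 1.88). This ratio was under 1.5-fold in cells with a Y-linked UMI (1.34), with gates on Cd4 and Cd8 UMIs (1.42) and without the highest doublet scores (1.42). Past 1.5-fold higher were 2.32% of 8003 genes in naive-like CD4 cells and 3.44% of 7963 in naive-like CD8 cells, and Socs3 lay above 99.0% and 97.9% of them. Of the 6 genes measured, 2 were past 1.5-fold higher in each of these classes, Socs3 and Cish, and none was lower, against 0.812% of all genes lower in naive-like CD4 cells. Cish met the minimum mean of 5 CPM there only through its CKO levels of 6.68 and 7.12. Its control levels were 3.43 in naive-like CD4 and 3.11 in naive-like CD8 cells, so its place in this count depends partly on the minimum. At a fold of 2, Cish in naive-like CD8 cells was the only call among these classes and all T cells together, beside 0.578% of all genes there, 0.375% in naive-like CD4 cells and 0.495% over all T cells. After thinning to 2000 UMIs, a Socs3 UMI was found in 7.86% (7.04 to 8.74) of CKO and 5.34% (4.55 to 6.23) of control naive-like CD4 cells, and in 8.83% (7.37 to 10.5) and 4.77% (3.78 to 5.92) of naive-like CD8 cells. Before thinning the naive-like CD4 shares were 20.4% and 13.6%, and the naive-like CD8 shares 23.2% and 17.3%. B-like cells had 4.17% and 1.54% after thinning (72 and 67 cells, median 5633 and 4495 UMIs), with intervals up to 11.7% and 8.28%, too wide to set a background.

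Much of the naive-like CD4 difference in Socs3 followed cluster 6. Its CKO cells had 67.2 CPM (659 UMIs) and its 73 control cells 52.5 (30 UMIs), the highest Socs3 levels among the naive-like CD4 clusters in both libraries. The ratios within clusters were smaller than over the class: 1.19 (1.0 to 1.42) in cluster 5, 1.28 (0.888 to 1.91) in cluster 6, 1.33 (1.07 to 1.65) in cluster 8 and 1.34 (0.827 to 2.17) in cluster 9. All 4 were above 1 and none was past 1.5-fold, and after thinning the share of cluster 5 cells with a Socs3 UMI was 5.67% in both libraries. Without cluster 6 the class ratio was 1.26, under 1.5-fold. With cells gated on Cd4 and Cd8 UMIs in place of clusters, the ratio for CD4 cells was 1.27, also under 1.5-fold. That gate does not leave out cluster 6 and takes in Treg-like and memory-like cells too. Since cluster 6 was nearly absent from the control library, a state found in the CKO library and a higher level in matching cells cannot be told apart for that part of the difference.

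**Figure D3:**
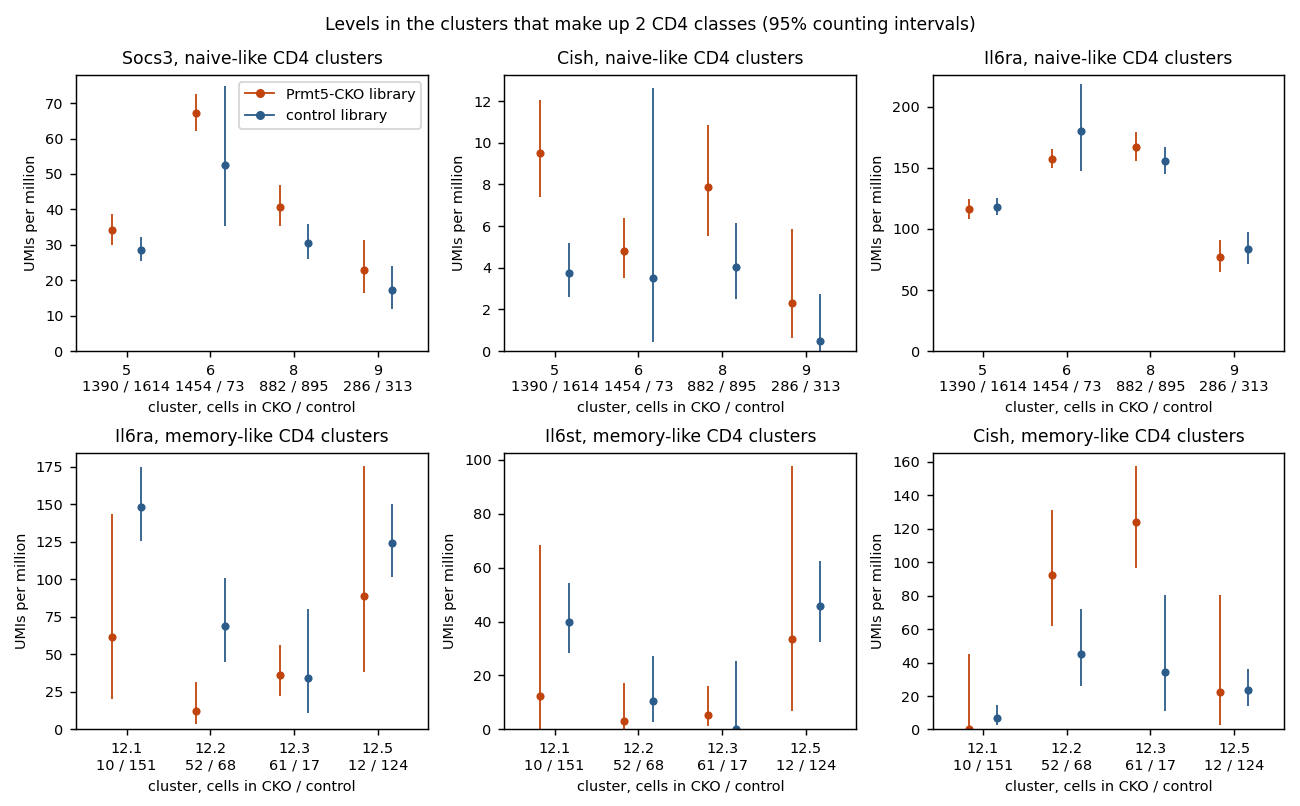
Levels (vertical axis, CPM, linear from 0) of Socs3, Cish and Il6ra in the naive-like CD4 clusters and of Il6ra, Il6st and Cish in the memory-like CD4 clusters, CKO in orange and control in blue, with 95% counting intervals and the cell numbers under each cluster. Socs3 is highest in cluster 6, which had 1454 CKO and 73 control cells, and control Il6ra is highest in memory-like clusters 12.1 and 12.5, which had 10 and 12 CKO cells.

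Other classes did not all share the Socs3 difference. Memory-like CD8 cells had 74.4 CPM in CKO (125 UMIs) and 41.2 in control (185 UMIs), a ratio of 1.81 (1.43 to 2.28). Interferon-responding-like cells had 42.4 and 26.9, a ratio of 1.58 (1.06 to 2.41). Treg-like cells had 53.8 (178 UMIs) and 54.9 (204 UMIs), a ratio of 0.981 (0.798 to 1.21), and memory-like CD4 cells 48.9 and 60.1, a ratio of 0.813 (0.578 to 1.13). The CKO gamma-delta-like cells had the highest Socs3 level of any class, 124.9 CPM (99 UMIs, 102 cells), and the control cells 34.3 (5 UMIs, 16 cells), a ratio of 3.64 (1.51 to 11.5). Prmt5 in gamma-delta-like cells was 8.83 and 13.7 CPM from 7 and 2 UMIs, too few to read. Effector-like CD8 cells had the lowest level in both libraries, 14.7 and 3.15, from 16 UMIs and 1 UMI.

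Cish, a feedback inhibitor induced through STAT5, had the highest ratio of the 6 measured genes over all T cells and in both naive-like classes. Over all T cells it was 19.8 CPM in CKO (1018 UMIs) and 12.5 in control (584 UMIs), a ratio of 1.59 (1.43 to 1.76), above that of 98.6% of the genes measured. With each class given its control weight the ratio was 1.85, and with a stricter cell filter 1.29. That filter asked for 1000 or more genes and less than 5% mitochondrial UMIs. It left 5644 CKO but only 3068 control T cells. Treg-like cells had the highest level in both libraries, 108 (357 UMIs) and 83.9 (312 UMIs), and naive-like cells had the lowest or nearly the lowest. The Treg-like intervals overlapped those of gamma-delta-like cells, at 97.1 (77 UMIs) and 82.2 (12 UMIs). In CKO they also overlapped that of memory-like CD4 cells, at 95.8. Naive-like CD4 cells had 6.68 (157 UMIs) and 3.43 (59 UMIs), a ratio of 1.95 (1.43 to 2.67). Naive-like CD8 cells had 7.12 (70 UMIs) and 3.11 (37 UMIs), a ratio of 2.29 (1.52 to 3.51). Both control levels lie under 5 CPM, and Cish met the minimum in these classes only as a mean over both libraries. Among naive-like CD4 clusters the ratio was 2.54 (1.67 to 3.94) in cluster 5, 1.95 (1.11 to 3.51) in cluster 8 and 1.37 (0.359 to 11.6) in cluster 6, where the control value rests on 2 UMIs. In contrast to Socs3, the Cish difference did not rest on cluster 6, whose CKO level of 4.79 was below the 9.51 of cluster 5. With cells gated on Cd4 and Cd8 UMIs, a set that takes in Treg-like cells too, the Cish ratio for CD4 cells was 1.41.

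A Cish UMI was found after thinning in 1.41% of CKO and 0.728% of control naive-like CD4 cells (3.41% and 1.87% before thinning). No thinned B-like cell of either library had one, which, at a limit of 3 counts, allows a share of cells with a UMI of up to 4.17% of 72 and 4.62% of 65 cells. Socs2 was 41.7 and 31.7 CPM in Treg-like cells and 0.255 and 0.116 in naive-like CD4 cells, from 6 and 2 UMIs. The part of free RNA from other cells in the Cish UMIs of naive-like CD4 cells was not tested.

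Memory-like CD4, memory-like CD8 and proliferating-like cells and the Fcer1g cluster had larger Cish ratios than either naive-like class. Their intervals overlapped that of naive-like CD8 cells. In memory-like CD4 cells it was 95.8 in CKO (100 UMIs, 135 cells) and 20.8 in control (49 UMIs, 360 cells), a ratio of 4.62 (3.25 to 6.64), above that of 99.6% of the genes measured. The class ratio carries the shift between clusters given above, since most control cells were in clusters 12.1 and 12.5, where Cish was low. It was 0 and 7.12 CPM in cluster 12.1, from 0 and 7 UMIs, and 22.3 and 23.4 in cluster 12.5, from 2 and 20 UMIs, a ratio of 0.951 (0.108 to 3.91). In the other two clusters it was 92.1 and 44.9 in cluster 12.2, a ratio of 2.05 (1.10 to 3.96), and 124 and 34.4 in cluster 12.3, a ratio of 3.62 (1.48 to 11.5). In memory-like CD8 cells it was 13.7 (23 UMIs) and 3.34 (15 UMIs), a ratio of 4.10 (2.05 to 8.44). Proliferating-like cells had 22.3 and 8.07, a ratio of 2.76 (1.46 to 5.67), and the Fcer1g cluster 24.9 and 8.34, a ratio of 2.99 (1.44 to 6.95). In effector-like CD8 cells the ratio was 1.20 (0.544 to 3.01) and in interferon-responding-like cells 0.80 (0.403 to 1.64), both with intervals that include 1. In Treg-like cells the ratio was 1.29 (1.10 to 1.502). Treg-like cells with a Y-linked UMI had 94.0 and 58.2 and those with an Xist UMI 115 and 102.5, so the spread between sexes within the control library was wider than the difference between libraries.

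Socs2 was highest in Treg-like cells and at most 0.305 CPM in the naive-like classes of either library. Gamma-delta-like cells came next in CKO at 30.3 CPM (24 UMIs) and NKT-like cells in control at 23.5 (21 UMIs). Both had intervals that overlapped those of Treg-like cells. Treg-like cells had 41.7 CPM in CKO (138 UMIs) and 31.7 in control (118 UMIs), a ratio of 1.31 (1.02 to 1.70), and none of the 7 genes was past 1.5-fold in Treg-like cells, against 4.11% of 7794 genes higher and 4.29% lower. In memory-like CD4 cells Socs2 was 23.0 (24 UMIs) and 8.05 (19 UMIs), a ratio of 2.86 (1.5 to 5.52). Within its clusters this difference was not seen: cluster 12.2 had 33.8 and 34.3 CPM and cluster 12.3 had 23.8 and 34.4, while 12.1 and 12.5 together had 1 Socs2 UMI. Proliferating-like cells had 13.4 (33 UMIs) and 4.04 (6 UMIs), a ratio of 3.31 (1.37 to 9.68). Effector-like CD8 cells had 12 UMIs in CKO and none in control. Over all T cells Socs2 stood at 5.43 and 3.90, a ratio of 1.39 (1.15 to 1.69), with a mean under the minimum of 5 CPM.

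**Figure D4:**
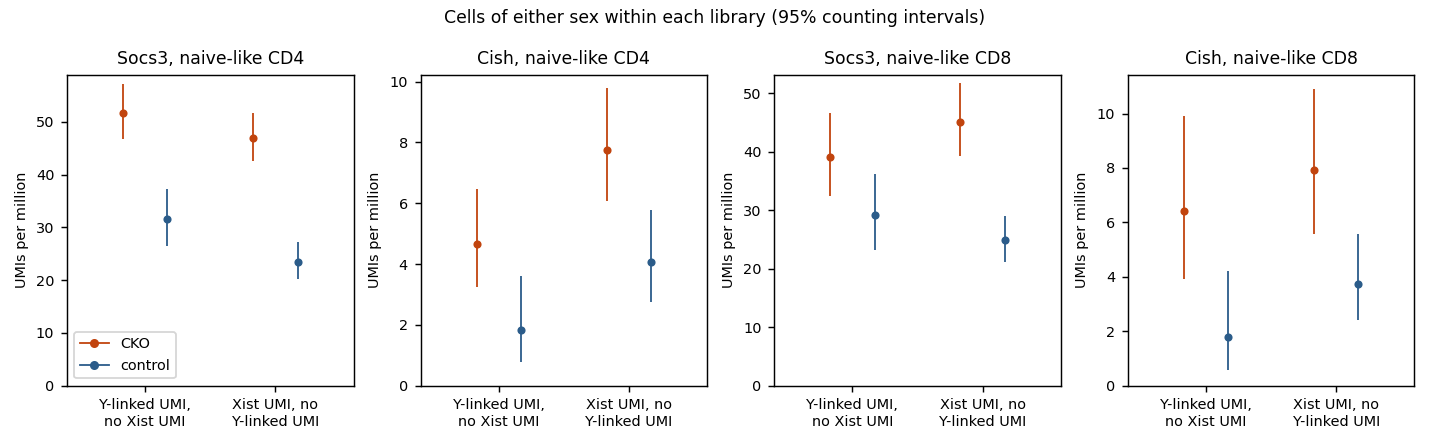
Levels of Socs3 and Cish (vertical axis, CPM, linear from 0) in naive-like CD4 and naive-like CD8 cells, split into cells with a Y-linked UMI and no Xist UMI and the reverse; CKO in orange, control in blue, bars are 95% counting intervals. In each of the 4 plots both CKO points lie above both control points.

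Because mice of both sexes contributed to each library, cells of the 2 sexes come from different mice and give a partial split by animal. Socs3 in naive-like CD4 cells was 51.7 CPM in CKO cells with a Y-linked UMI and 47.0 in those with an Xist UMI, against 31.6 and 23.5 in control cells. Cish in the same cells was 4.64 and 7.75 in CKO, against 1.83 and 4.07 in control. For Il6ra the values were 134 and 144 in CKO and 117 and 123.5 in control, and for Socs1 75.7 and 76.6 in CKO and 71.1 and 64.0 in control. Both CKO values thus exceeded both control values for 4 of the 6 genes measured in naive-like CD4 cells, as they did for 31.4% of all genes there. The same held in naive-like CD8 cells for 4 of 6 genes, Stat3, Socs1, Socs3 and Cish, and for 33.8% of all genes. Over all T cells it held for 5 of 6 genes, all but Il6st, and for 35.8% of all genes. These shares of all genes are large, so the order alone sets none of the 7 apart.

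**Figure D5:**
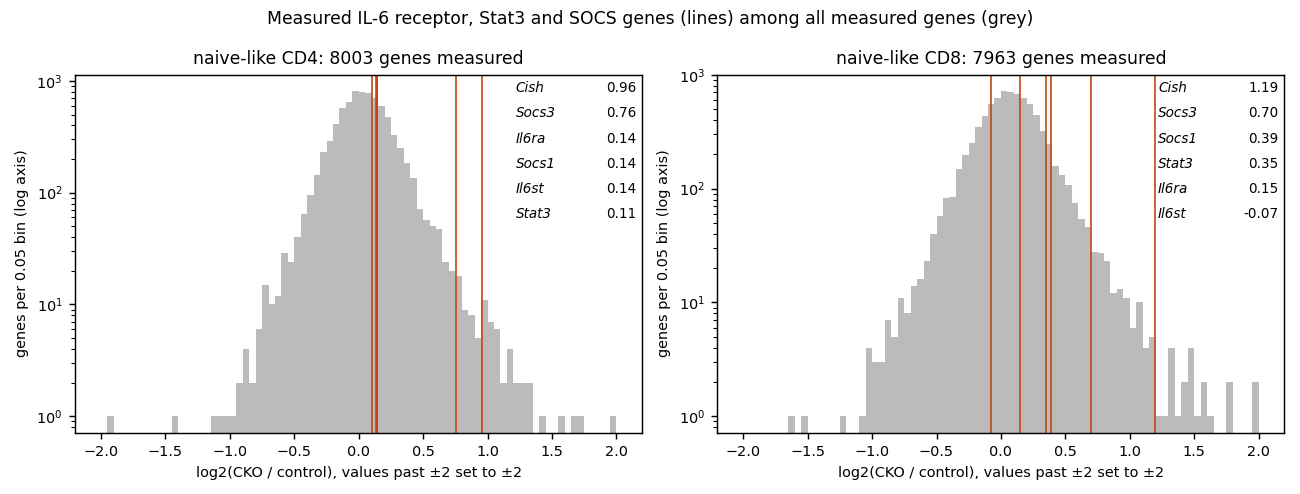
Number of genes (vertical axis, log scale) by log2 ratio of CKO over control (horizontal axis) in naive-like CD4 (left) and naive-like CD8 cells (right), with the 6 measured genes of the set as orange lines and their values listed. Cish and Socs3 lie in the right tail of both distributions, while Il6st lies near the middle.

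The rest of the pathway was read from lists of partner genes, in naive-like CD4 cells unless stated, where the median log2 ratio of all 8003 genes was 0.04. Of 13 IL-6 family ligands and receptors only 2 met the minimum, Clcf1, a cytokine of the family (ratio 1.07), and Il27ra, the IL-27 receptor chain that pairs with gp130 (0.961), and neither was past 1.5-fold. Il10rb and Il21r, receptor chains that act through STAT3, had ratios of 1.17 and 1.01. All 10 Janus kinase and STAT genes were measured and none was past 1.5-fold, with Stat5a lowest at 0.733 (0.645 to 0.832) and Stat6 highest at 1.24. Stat5a was past 1.5-fold lower, at 0.619 (0.512 to 0.747), in naive-like CD8 cells, where 1% of all genes were. Adam17 and Adam10, proteases that shed IL-6Rα, had ratios of 1.16 and 0.939.

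Of the other negative regulators 12 of 14 were measured and 1 was past 1.5-fold. It was Usp18, which blocks the type I interferon receptor, at 36.5 CPM in CKO (859 UMIs) and 11.3 in control (194 UMIs), a ratio of 3.24 (2.77 to 3.802). Ptpn6, the phosphatase SHP-1, had a ratio of 1.29 (1.21 to 1.38). Among interferon targets 2 of 11 were past 1.5-fold higher and none lower, Ifit3 at 2.36 (1.92 to 2.91) and Gbp4 at 1.69 (1.54 to 1.85). The list median was a log2 ratio of 0.14. Of all genes there, 2.32% were past 1.5-fold higher and 0.812% lower.

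The lists of STAT3 and STAT5 target genes are given side by side, and the difference between them was not tested. Of 12 STAT3 targets measured, 6 had a ratio above 1 and 6 below, none past 1.5-fold, with a median log2 ratio of 0.01. Bcl3 had the largest ratio, 1.43 (1.21 to 1.70), and Maf the smallest, 0.807. Of 8 STAT5 targets measured, 7 had a ratio above 1 and 2 were past 1.5-fold higher, with a median log2 ratio of 0.33, where 57.4% of all genes had a ratio above 1 and 2.32% were past 1.5-fold higher. They were Bcl2, the survival gene, at 377 and 225 CPM, a ratio of 1.68 (1.61 to 1.74), and Lta, the cytokine lymphotoxin alpha, at 12.5 and 7.91, a ratio of 1.59 (1.29 to 1.96). Pim1, a kinase gene on both lists, had a ratio of 1.26. Of 7 STAT5 targets measured in naive-like CD8 cells, 3 were past 1.5-fold higher, Bcl2 at 1.81, Lta at 1.71 and Pim1 at 1.59, with a list median of 0.42 beside 0.07 for all genes, of which 3.44% were past 1.5-fold higher. Of 11 STAT3 targets, 3 were too, Bcl3 at 1.63, Pim1 at 1.59 and Nfkbiz at 1.52, with a list median of 0.04. In memory-like or effector-like CD8 cells 5 of 12 STAT3 targets and 3 of 7 STAT5 targets were past 1.5-fold higher, with medians of 0.43 and 0.25, where 9.89% of all genes were.

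Immediate early and dissociation genes were split in direction in naive-like cells, and their part in the Socs3 difference was not tested. In naive-like CD4 cells 15 of 18 were measured, 1 was past 1.5-fold higher, the immediate early gene Fos at 623 and 400.5 CPM (ratio 1.56), and 1 lower, the heat shock gene Hspa1b (0.494). Among all genes in these cells 2.32% were past 1.5-fold higher and 0.812% lower. Nfkbia, the NF-kappaB inhibitor, had a ratio of 1.45. The list had 7 genes above 1 and 8 below, with a median log2 ratio of -0.07. In naive-like CD8 cells 14 of 18 were measured and 1 was past 1.5-fold higher, Nfkbia at 1.51, beside 3.44% of all genes. None was past 1.5-fold lower, and Fos had a ratio of 1.24. There 7 genes lay above 1 and 7 below, with a median log2 ratio of 0.02.

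Likeness of pattern was taken as Pearson's r of log2 levels over 20 points, 10 classes in each of 2 libraries, which share cells' libraries, class definitions and depth, and is given as a description. All points weigh the same, though some rest on few UMIs. For Il6st, CKO NKT-like cells had 0 UMIs (14 cells) and control gamma-delta-like cells 2 (16 cells). Among 5069 genes Il6ra was most like Chd2 (0.93) and Galnt6 (0.89), and Il6st was most like Nsg2 (0.96), Ssbp2 (0.96) and Treml2 (0.95). Stat3 was most like Nisch (0.89), and Socs1 was most like Stat3 (0.80) and Trim56 (0.80). Socs3 was most like Gstp1 (0.88), Fndc3a (0.87) and Klf4 (0.87). Cish and Socs2 shared Gadd45b (0.95 and 0.92), Socs2 being closest to Il2ra (0.94), the interleukin-2 receptor alpha chain, and Cish and Socs2 were alike (0.89). Il6ra and Il6st, the chains of 1 receptor, had an r of 0.48, and Cish against Il6st -0.49.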

How the data were processed

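The authors deposited filtered gene by cell count matrices (whole UMI counts, not normalized), 1 per library. CASAVA 1.8, Cell Ranger 3.1.0, Seurat 2.3.4 and the mm10 build are named per the submitters' processing notes, and how strand was used is not given in the sources used here. Replicate animals were pooled within each library, so no test between groups was made, and values describe these 2 libraries.

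A cell was kept when it had 500 or more genes and less than 10% of its UMIs from mitochondrial genes. Scrublet called 0 doublets and so did not work here, and leaving out the highest 6% of doublet scores served as an alternative. Cells were clustered on 2000 variable genes, 30 principal components and 15 neighbours (Leiden, resolution 1), and cluster 12 was split again with 15 components at resolution 0.8. Class names came from markers and from thresholds set after the clusters were seen. UMIs were summed per class and library. Intervals are exact 95% intervals and cover counting error only. Genes needed a mean of 5 CPM and 50 UMIs in all to be measured, and a difference was called past 1.5-fold. For shares of cells, UMIs were drawn down to 2000 in every cell. The 9 gene lists and 22 marker sets are those of the text. Named partner genes were up to 4 per list, those with the largest absolute log2 ratio in naive-like CD4 cells among measured genes, with others named where a count was of few genes. The like genes were taken from the 3 with the highest r per gene, and some results are not reported here. The members and lists were chosen with earlier results of these data known. The ratio and interval functions were tested on simulated data.

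Python 3.11.15, numpy 2.4.6, scipy 1.17.1, pandas 2.3.3, scanpy 1.11.5, anndata 0.12.19, igraph 0.11.9 and scikit-learn 1.9.0 were used. Alternatives were other scalings, filters, clusterings, gates, thinning depths, each sex alone and a fold of 2.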

Additional observations from a re-analysis of the deposited data

Results flagged for a closer look

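For 3 of the genes the CKO over control difference had opposite directions in different cell classes, and these differences between classes were not tested, since each group is 1 library. Il6ra had a log2 ratio of 0.14 in naive-like CD4 cells and 0.15 in naive-like CD8 cells, against -1.76 in memory-like CD4 cells and -0.66 in memory-like CD8 cells. Il6st had 0.14 in naive-like CD4 cells against -2.18 in memory-like CD4 cells. Socs1 had 0.14 in naive-like CD4 cells, 0.39 in naive-like CD8 cells, 0.39 in memory-like CD8 cells and 1.34 in gamma-delta-like cells, against -0.26 in Treg-like cells. The counting intervals of each pair did not overlap. The memory-like CD4 values come with the shift between clusters given above, and the gamma-delta-like value rests on 5 control UMIs.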

How the results depend on the processing

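No paired analysis was possible because each group is 1 library. Over the alternatives run, the log2 ratio of Socs3 and of Cish in naive-like CD4 cells stayed above 0 in 12 of 12, from 1.26-fold to 1.999-fold and from 1.41-fold to 2.54-fold. In memory-like CD4 cells Cish ran from 3.64-fold to 4.61-fold and Il6ra from 0.229 to 0.391 over 9 alternatives, and Il6st from 0.207 to 0.504 over 8. Of 418 ratios under alternatives, 37 lay on the other side of 1 from the reported ratio. In 35 of them the reported interval included 1, and in 2 it did not: Stat3 in naive-like CD4 cells without cluster 6 (-0.023) and Socs2 in memory-like CD4 cells with a Y-linked UMI (-0.19). The alternative without cluster 6 was chosen after seeing the data. It also gave log2 ratios of 0.036 for Il6ra, 0.26 for Socs1 and 0.33 for Socs3.

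Over all T cells, the stricter cell filter gave log2 ratios of 0.21 for Il6ra and 0.36 for Cish, and control class weights gave 0.036 and 0.89. Cells with a Y-linked UMI gave 0.21 for Il6ra, 0.12 for Il6st and 0.83 for Cish, and cells with an Xist UMI gave -0.093 for Il6st. In naive-like CD4 cells Socs1 was 0.26 under the stricter filter and 0.26 in cells with an Xist UMI. Socs3 there was 0.34 with gates, 0.53 after thinning and 0.9994 in cells with an Xist UMI, and Cish was 0.50 with gates. In naive-like CD8 cells thinning gave 0.35 for Il6ra, 0.59 for Socs1 and 0.98 for Socs3, and cells with a Y-linked UMI gave 0.12 for Il6st, 0.42 for Socs3 and 1.83 for Cish. The causes were not tested.

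Of the 7 genes, the number past 1.5-fold higher over all T cells went from 1 to 0 under the stricter filter, as a mean over cells and at a fold of 2. In naive-like CD4 cells it went from 2 to 1 after thinning and without cluster 6, and to 0 with gates and at a fold of 2. In naive-like CD8 cells it went from 2 to 1 in cells with a Y-linked UMI, with gates, without the highest doublet scores and at a fold of 2. Of the partner genes, 2 were lower over all T cells and 1 in cells of either sex alone. In naive-like CD4 cells 6 were higher and 3 with gates, and 1 was lower and 2 in cells of either sex alone. In naive-like CD8 cells 1 was lower, 2 at Leiden resolution 0.5, 0 with gates and 3 in cells with a Y-linked UMI. Shares of all genes under most of these alternatives are not given here, so the counts alone do not show a change in the 7 genes or the lists. The stricter filter and resolution 0.5 formed no memory-like CD8 class, and the stricter filter no memory-like CD4 class, so they gave no value there. Without the minimum level, 9.32% and 7.88% of genes in naive-like CD4 cells were past 1.5-fold higher and lower, against 2.32% and 0.812%.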
